A study of Gallus gallus with 16 samples.

Results

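Residual feed intake measures how much more or less feed an animal takes in than its body weight and growth call for. Chickens of 1 population had been selected in opposite directions, toward low (LRFI) and high (HRFI) residual feed intake. The comparison described here asked which duodenal genes differed between day 35 and day 42 in another way in LRFI than in HRFI birds. All 16 arrays of the series entered it, with 4 arrays in each of 4 groups: LRFI at day 35, LRFI at day 42, HRFI at day 35 and HRFI at day 42. The labels name no treatment, and an unselected line was not analysed here. For each of 38439 of the 38535 probe sets, those that are not array controls, the age difference (day 42 minus day 35) in HRFI was subtracted from the age difference in LRFI. This interaction is on the log2 scale: 0 means the same age difference in both lines, a positive value a more positive age difference in LRFI, and a negative value a more positive age difference in HRFI. A value of 1 is a 2-fold divergence.

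The duodenum is the first stretch of the small intestine, where bile and pancreatic enzymes meet the food and where much of the absorption of fat, iron, calcium and vitamins takes place. Its epithelium is renewed without pause from dividing crypt cells, and its secretory and absorptive cells fold and export large amounts of protein through the endoplasmic reticulum (ER). It also holds immune cells and responds to microbes with acute-phase and antimicrobial proteins.

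The tissue label was checked against 12 markers of intestinal epithelium, whose mean log2 level lay between 11.89 and 12.35 on all arrays. LRFI day 35 replicates 3 and 4 were the lowest, at 11.89 and 11.90. For 16 enzymes of the exocrine pancreas the mean was between 4.81 and 5.63 on 14 arrays, but 12.53 on the third HRFI array of day 35 and 10.26 on the second LRFI array of day 42. Plasma protein genes of the liver, 20 in number, averaged 7.68 on LRFI day 42 replicate 2, 6.84 on HRFI day 35 replicate 1 and 5.23 to 6.07 elsewhere. The actin control is a ratio of 3′ to 5′ signal that is larger where RNA is shorter. It was above 1 (log2) on LRFI day 35 replicates 3 and 4, HRFI day 35 replicates 2 and 3, and HRFI day 42 replicate 4. The values there were 1.13 to 2.07. The GAPDH control, read in the same way, was highest in LRFI at day 42, at 0.36 to 0.40. It was 0.05 to 0.26 on the arrays of high actin difference. These arrays differ in number between the groups, so values without them are given beside the gene values and the larger list medians that they move by over 1.5 times; their part in those results was not tested. In whole tissue, fewer cells of a type and less RNA per cell cannot be told apart.

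**Figure D1:**
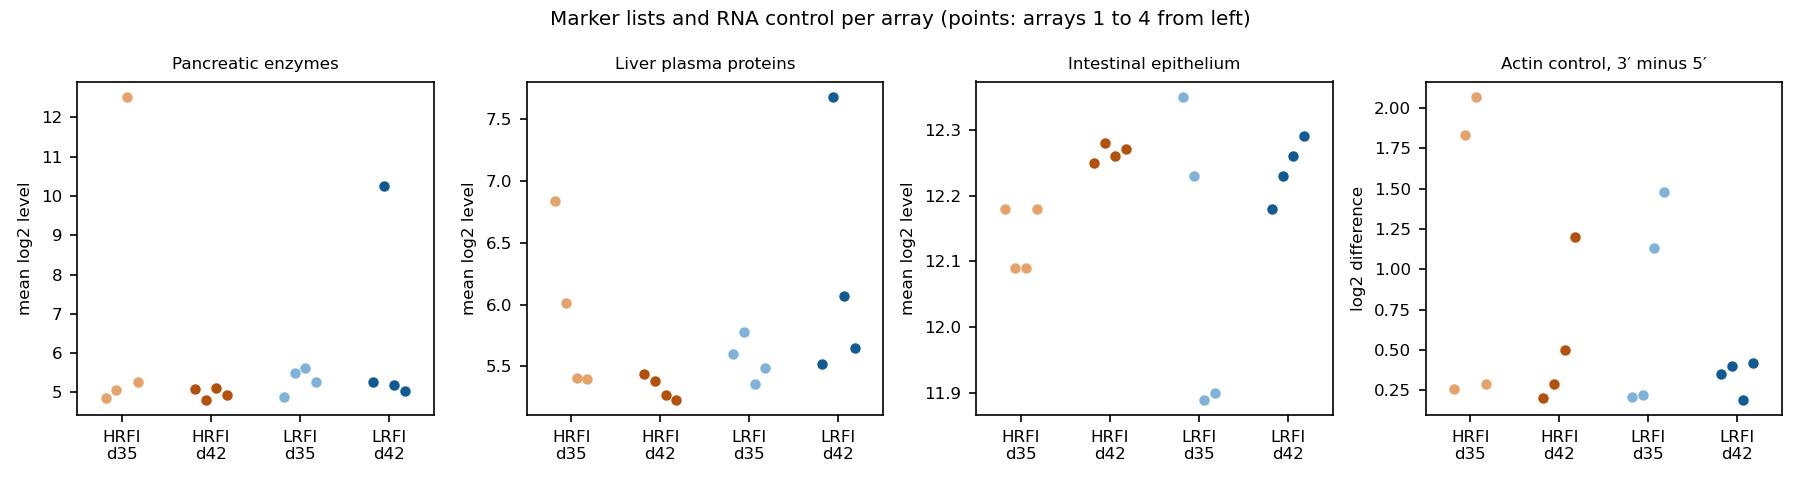
Mean log2 level of pancreatic enzyme, liver plasma protein and intestinal epithelium genes, and the 3′ minus 5′ difference of the actin control, on each array (y axes, log2) by group (x axis, 4 arrays each). The 2 pancreas-high arrays, at 12.53 and 10.26, lie in opposite corners of the design, HRFI day 35 and LRFI day 42.

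No probe set had an interaction that passed. At an adjusted p below 0.05 (limma, Benjamini-Hochberg over all 38439 probe sets) the count was 0, or 0% of those tested. At an unadjusted p below 0.05 the count was 2438 probe sets, or 6.34%, against 1922 that this threshold gives by chance alone. Of these, 1221 (3.18%) were positive and 1217 (3.17%) negative. With 1 probe set standing for each of 13013 named genes, 373 genes (2.87%) were positive and 539 (4.14%) negative at that threshold, 52.5% of all genes had an estimate below 0 and 47.5% above 0, and the median interaction was -0.01. The median standard error (SE) of an interaction was 0.17, against 0.12 for the difference of 2 groups. Every gene described below therefore failed the correction for the number of probe sets, and the values are given as descriptions with their errors. Genes of a list were read on the same arrays and can vary together, so counts within a list are not separate observations.

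The smallest adjusted p, 0.0622 (limma), belonged to a probe set without a gene symbol. In HRFI it read 9.63, 9.47, 9.73 and 9.81 at day 35 and 9.06, 9.34, 9.10 and 9.08 at day 42. The LRFI values were 9.0, 8.94, 9.15 and 8.85 at day 35 and 9.64, 9.40, 9.41 and 9.53 at day 42. Its interaction was 1.03 ± 0.14 (SE, n = 4 arrays in each group). Neither the ages within a line nor the lines within an age overlapped. Groups of 4 arrays that do not overlap were common on the whole array: this held for 4.99% of probe sets between the LRFI ages, 4.58% between the HRFI ages, 2.87% between the lines at day 35 and 4.43% between the lines at day 42.

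Among named genes, the 12 of smallest p in each direction were taken. All 24 had age differences of opposite sign in the lines, which was so for 44.7% of all probe sets, and which the choice by interaction favours. Of the 24, 8 had no other probe set. The other 16 had 40 further probe sets, of which 26 had an interaction of the same sign and 14 of the other sign. In 8 genes at least 1 further probe set reached an unadjusted p below 0.05 in the same direction, and in 1 gene, NUF2, a further probe set did so in the other direction.

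**Figure D2:**
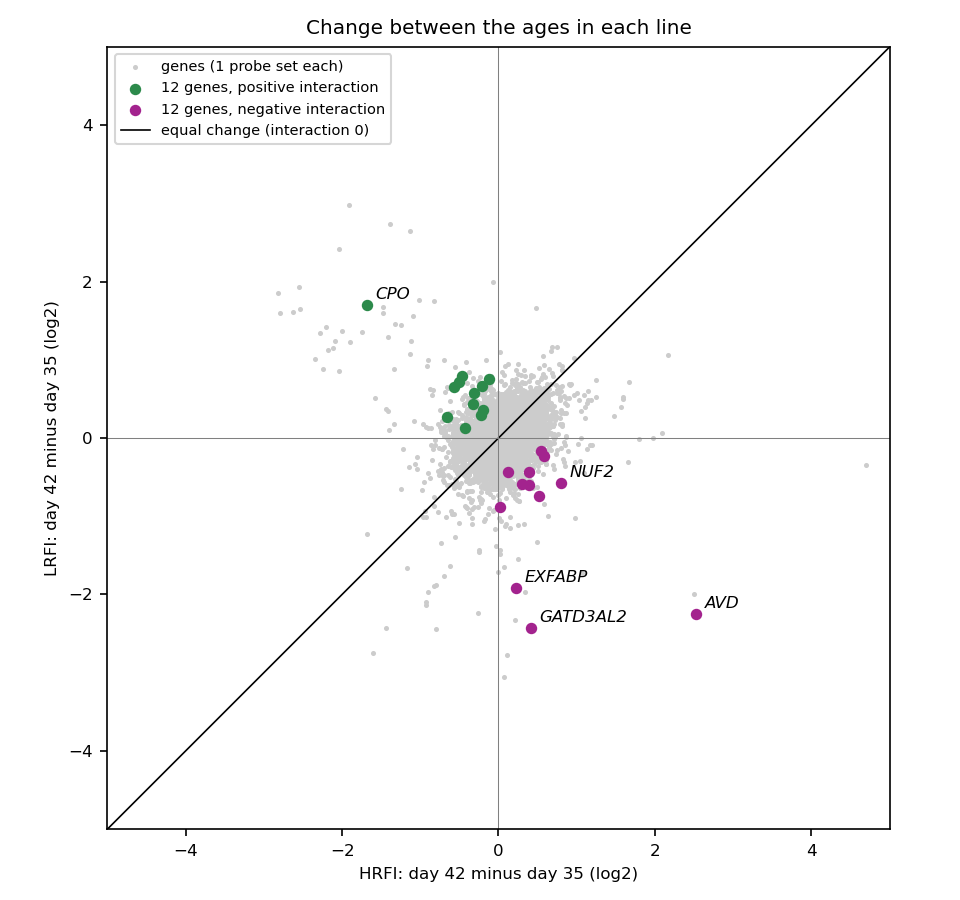
Age difference (day 42 minus day 35, log2) in HRFI (x axis) and in LRFI (y axis) for 13013 genes, 1 probe set each (grey), and for the 12 named genes of smallest p in each direction, on the probe set that was chosen. Distance from the diagonal is the interaction; AVD, at 2.53 in HRFI and -2.25 in LRFI, lies far below it, and CPO, at -1.68 and 1.70, above it.

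Members of the inflammatory mediator list had interactions of both signs. AVD encodes avidin, a biotin-binding protein of egg white that chicken tissues also make during inflammation. In HRFI it read 8.10, 7.37, 8.22 and 8.31 at day 35 and 9.82, 10.68, 10.59 and 11.03 at day 42. In LRFI the order was the opposite, with 8.41, 9.63, 11.98 and 11.29 at day 35 and 7.66, 7.73, 8.74 and 8.16 at day 42. Every HRFI array was higher at day 42 than at day 35, while in LRFI the ages overlapped through day 35 replicate 1, the lowest of its group. The age difference was 2.53 ± 0.56 (SE) in HRFI and -2.25 ± 0.56 in LRFI, which gave an interaction of -4.78 ± 0.79 (adjusted p = 0.354, limma). The 95% interval ran from -6.47 to -3.10. Without the 5 arrays whose actin difference was above 1 the AVD interaction was -3.10, and without LRFI day 35 replicate 1 it was -5.42.

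LYG2, a goose-type lysozyme that cuts bacterial cell walls, showed a like order on its only probe set. It read 8.49, 7.17, 6.51 and 9.63 in HRFI at day 35, and 9.08, 10.84, 10.83 and 11.02 at day 42. LRFI arrays gave 8.32, 10.79, 12.06 and 11.61 at day 35, and 9.57, 7.48, 8.85 and 8.92 at day 42. The ages overlapped in both lines. The interaction of LYG2 was -4.48 ± 1.10 (adjusted p = 0.539, limma), and -2.04 without the arrays of high actin difference.

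EXFABP, a lipocalin that binds fatty acids and bacterial siderophores, differed between the ages mainly in LRFI. Its LRFI values were 7.32, 8.73, 9.77 and 9.24 at day 35 and 6.75, 6.77, 7.16 and 6.70 at day 42, without overlap. In HRFI it stayed between 6.78 and 7.57 at both ages. The interaction was -2.14 ± 0.50 (adjusted p = 0.539, limma).

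SAA, an acute-phase apolipoprotein, read 6.43, 5.80, 6.99 and 5.30 in HRFI at day 35 and 6.83, 7.51, 7.0 and 7.47 at day 42. On LRFI arrays the values were 5.84, 8.75, 9.30 and 7.78 at day 35 and 6.03, 6.01, 6.39 and 6.32 at day 42. Its interaction was -2.80 ± 0.76 (adjusted p = 0.595, limma), and again LRFI day 35 replicate 1 lay apart from the other arrays of its group. IL8L2, a chemokine that draws granulocytes, had an interaction of -1.97 ± 0.66, with LRFI levels of 6.09 to 8.67 at day 35 and 4.51 to 4.95 at day 42. GATD3AL2, whose product is less well described, read 11.74 to 14.03 in LRFI at day 35 and 9.86 to 11.45 at day 42, and its interaction was -2.84 ± 0.65 (adjusted p = 0.539).

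Of 33 measured inflammatory mediators, 25 had a negative interaction, against 52.5% of all genes. At an unadjusted p below 0.05, 11 were negative and 2 positive, against 4.14% and 2.87% of all genes. The median interaction of this list was -0.21, against -0.01 over all genes, and it ranged from -0.31, without LRFI day 42 replicate 3, to -0.09, without the pancreas-high and liver-high arrays. It was -0.13, -0.12 and -0.14 without LRFI day 35 replicate 2, HRFI day 35 replicate 3 and HRFI day 42 replicate 4 in turn. The 2 positive genes, ORM1 at 1.84 ± 0.73 and C3 at 0.95 ± 0.40, encode plasma proteins that the liver also makes. Without the 2 liver-high arrays their interactions were 0.96 and 0.57. Of the 16 markers of macrophages and granulocytes, 11 were negative, with a median of -0.08 that was 0.08 without the arrays of high actin difference, and LYG2 alone reached an unadjusted p below 0.05.

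**Figure D3:**
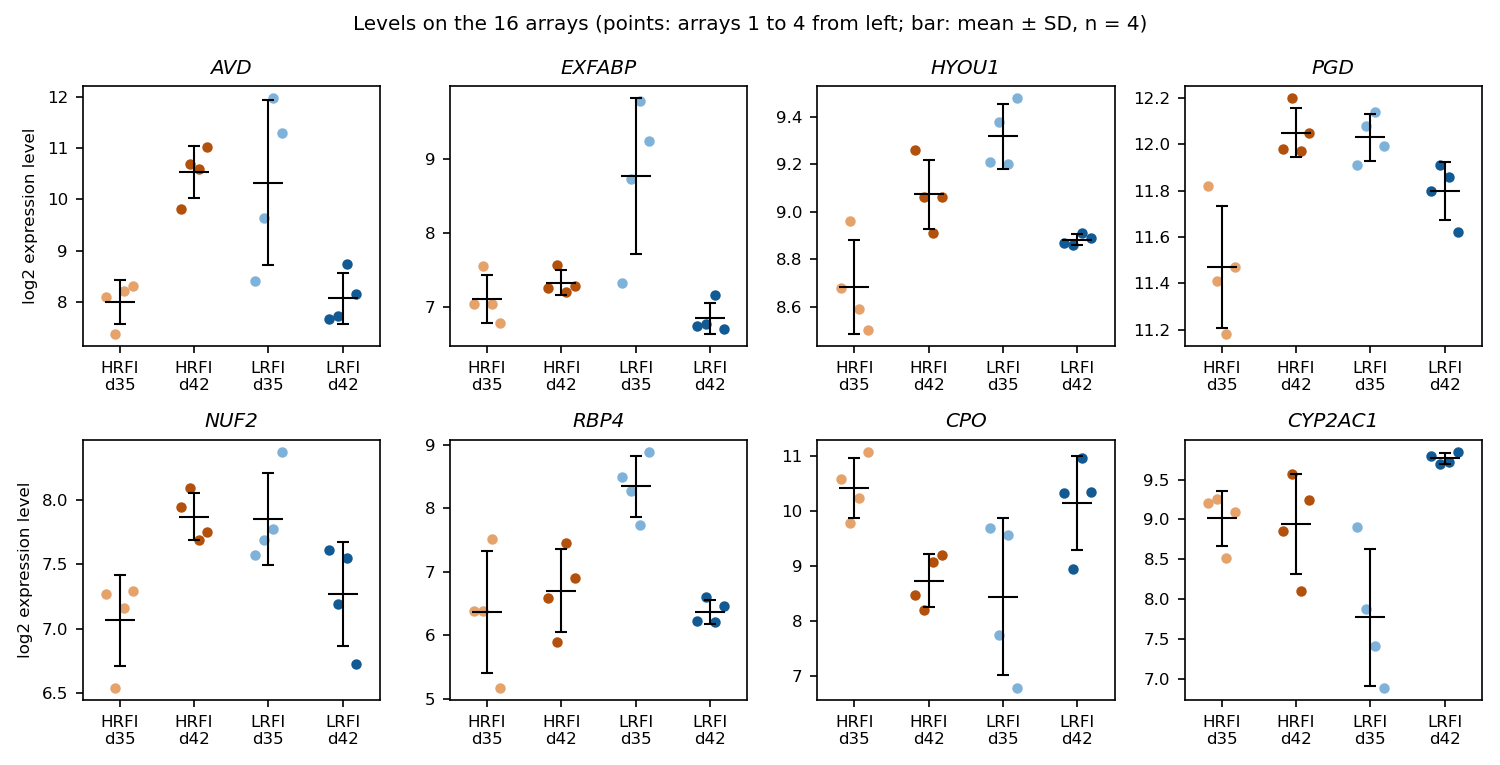
Log2 level (y axis) of 8 genes on each of the 16 arrays by line and age (x axis); points are arrays, horizontal bars are means and error bars the SD of 4 arrays. AVD, HYOU1, PGD and NUF2 are higher at day 42 than at day 35 on average in HRFI and lower in LRFI, EXFABP and RBP4 are high in LRFI at day 35, and CPO runs the other way.

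Genes for protein folding in the ER were mostly negative, with 22 of 25 below 0 against 52.5% of all genes. HYOU1, an ER chaperone of the Hsp70 family, read 8.68, 8.96, 8.59 and 8.50 in HRFI at day 35 and 9.26, 9.06, 8.91 and 9.06 at day 42. Values in LRFI were 9.21, 9.38, 9.20 and 9.48 at day 35 and 8.87, 8.86, 8.91 and 8.89 at day 42. All LRFI arrays were above all HRFI arrays at day 35 and, by a margin below the second decimal, under all of them at day 42. The ages overlapped in HRFI and not in LRFI. The interaction was -0.83 ± 0.15 (adjusted p = 0.518, limma), with a 95% interval from -1.14 to -0.51. The second probe set of HYOU1 gave -0.64 ± 0.24. Over the alternatives tried, the first ranged from -0.92 to -0.76.

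HSPA5, the ER chaperone BiP that holds the stress sensors of the unfolded protein response inactive, had an interaction of -0.72 ± 0.20. Its LRFI levels were 11.97 to 12.49 at day 35 and 11.86 to 11.93 at day 42, without overlap, and HRFI day 35 replicate 3, one of the pancreas-high arrays, was the lowest of all at 11.27. SDF2L1, a partner of BiP, had an interaction of -0.84 ± 0.25, and CALR, which folds glycoproteins, one of -0.65 ± 0.21. The peptidyl-prolyl isomerase FKBP7, also an ER protein, was not on the list. It had interactions of -0.90 ± 0.20 and -0.60 ± 0.19 on 2 of its 3 probe sets, with LRFI levels on the first of 8.44 to 8.90 at day 35 and 7.65 to 8.23 at day 42, and HRFI levels of 7.92 to 8.39 over both ages. At an unadjusted p below 0.05, 4.14% of all genes were negative and 2.87% positive. Of the 25 ER chaperone and unfolded protein response genes, 9 were negative and 0 positive at that threshold. Their median interaction was -0.30, made of a median age difference of 0.26 in HRFI and -0.06 in LRFI. Without the 2 pancreas-high arrays the median was -0.28, and without those of high actin difference -0.41.

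Cytosolic and mitochondrial heat shock proteins had the same median, -0.30, with 23 of 25 negative, against 52.5% of all genes. At an unadjusted p below 0.05, 11 were negative, against 4.14% of all genes. AHSA1, an activator of HSP90, read 10.33, 10.61, 9.86 and 10.19 in HRFI at day 35 and 10.85, 10.68, 10.73 and 10.66 at day 42. Its LRFI readings were 10.57, 10.48, 10.64 and 10.54 at day 35 and 10.30, 10.33, 10.43 and 10.27 at day 42. The ages did not overlap in either line, and their order was reversed between the lines. Its interaction was -0.71 ± 0.17 (adjusted p = 0.539, limma). HSP90AA1, an inducible HSP90, had -0.68 ± 0.23, HSPA4L -0.92 ± 0.31 and HSPH1 -1.34 ± 0.47, the latter pair being exchange factors for Hsp70. The HSPH1 value was -0.89 without the 2 pancreas-high arrays and -0.69 without the liver-high arrays as well. HRFI day 35 replicate 3 had the lowest list mean of all arrays, 9.19, and without it the median was -0.22.

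The chaperonin that folds actin and tubulin was measured by 8 subunit genes. All 8 were negative, against 52.5% of all genes, with a median of -0.48. At an unadjusted p below 0.05, 3 were negative, against 4.14% of all genes. CCT2 read 9.80 to 10.30 in HRFI at day 35 and 10.35 to 10.89 at day 42, and 10.36 to 10.62 and 10.25 to 10.63 in LRFI. Here the difference lay between the HRFI ages, while the LRFI ages overlapped. The interactions were -0.60 ± 0.18 for CCT2, -0.46 ± 0.14 for CCT4 and -0.51 ± 0.18 for CCT3. The list median was -0.34 without HRFI day 35 replicate 3, whose list mean of 9.52 was the lowest of all arrays.

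**Figure D4:**
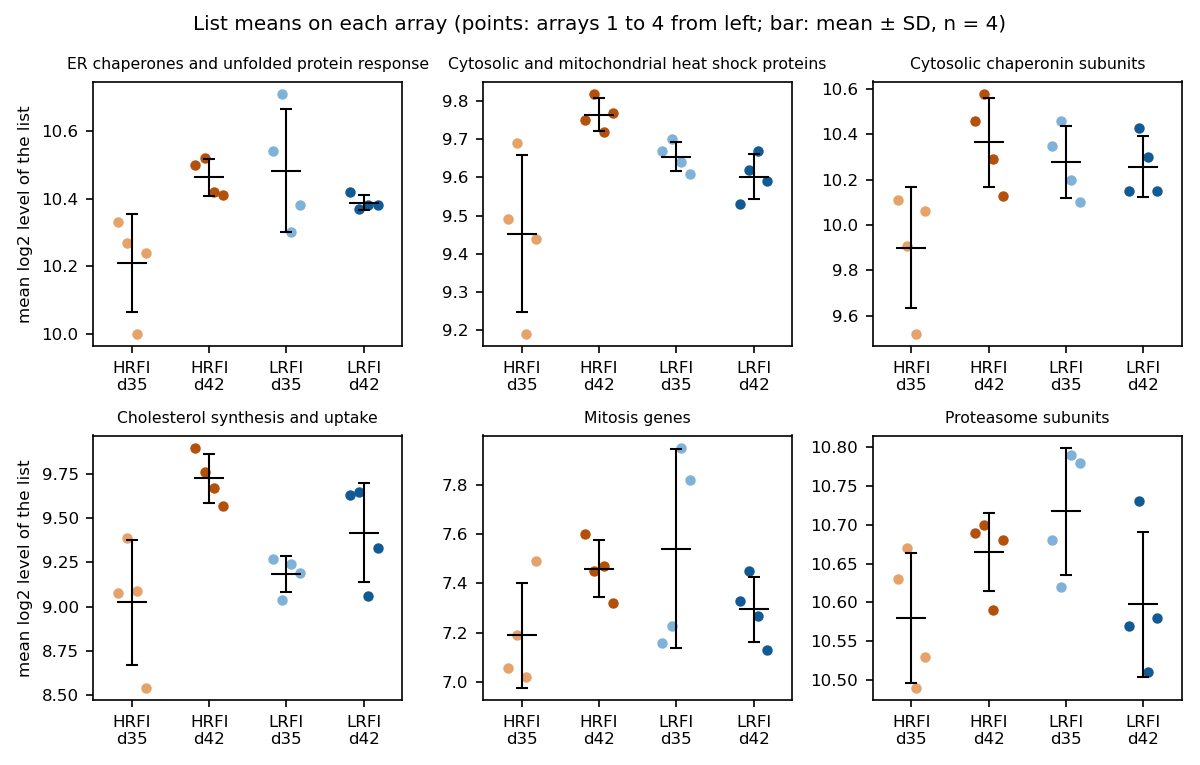
Mean log2 level of 6 gene lists (y axis) on each array by line and age (x axis), with the mean and SD of 4 arrays. In the chaperone, chaperonin and cholesterol panels HRFI is lower at day 35 than at day 42 on average, and in the mitosis panel LRFI day 35 splits into replicates 1 and 2 at 7.16 and 7.23 and replicates 3 and 4 at 7.95 and 7.82.

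The 32 mitosis genes had the most negative median of the 34 lists, -0.57, with 30 negative and 11 of these at an unadjusted p below 0.05. Over all genes, 52.5% were below 0 and 4.14% were negative at that threshold. The mitosis median moved most when the arrays of high actin difference were left out together. Left out alone, LRFI day 35 replicates 3 and 4 gave -0.39 and -0.45. HRFI day 35 replicates 2 and 3 and HRFI day 42 replicate 4, each left out alone, gave -0.57, -0.51 and -0.61. The mitosis mean was 7.16 and 7.23 on LRFI day 35 replicates 1 and 2, but 7.95 and 7.82 on replicates 3 and 4, which had a high actin difference and low epithelium markers. Without the 5 arrays of high actin difference the median was -0.13, and with that difference as a covariate it was -0.57. The 30 genes of DNA replication had a median of -0.25, 27 of them negative and 6 at an unadjusted p below 0.05, and without these arrays the median was -0.08.

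NUF2, part of the kinetochore complex that binds spindle microtubules, was the mitosis gene of smallest p. It read 7.27, 6.54, 7.16 and 7.29 in HRFI at day 35 and 7.94, 8.09, 7.69 and 7.75 at day 42. LRFI arrays had 7.57, 7.69, 7.77 and 8.37 at day 35 and 7.61, 7.19, 7.55 and 6.73 at day 42. The HRFI ages did not overlap and the LRFI ages did. Its interaction was -1.38 ± 0.30 (adjusted p = 0.539, limma), and -0.99 without the arrays of high actin difference. A second probe set gave -0.86 ± 0.32, and another, at a mean level of 2.63 and so near the bottom of the array's range, 0.26 ± 0.12.

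The condensin subunit SMC2 had an interaction of -0.81 ± 0.28, the spindle protein NUSAP1 one of -0.58 ± 0.20 and the spindle motor KIF11 one of -0.65 ± 0.25. Without the arrays of high actin difference these were -0.37, -0.29 and -0.19. Among replication genes, the cyclin gene CCNE2 had -0.58 ± 0.18, the ribonucleotide reductase subunit RRM2 -0.69 ± 0.23 and the flap nuclease FEN1 -0.57 ± 0.21, and without those arrays they were -0.35, -0.42 and -0.19. MYBL1, a transcription factor of the MYB family, stood at 4.70 to 5.20 in HRFI at day 35, 4.98 to 5.43 in HRFI at day 42, 5.46 to 5.80 in LRFI at day 35 and 4.89 to 5.15 in LRFI at day 42. Its interaction was -0.89 ± 0.17 (adjusted p = 0.539, limma), and -0.79 without the arrays of high actin difference. Its 5 other probe sets had mean levels of 2.70 to 3.62 and interactions from -0.21 to 0.34.

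Genes of cholesterol synthesis and uptake had a positive median age difference in both lines, larger in HRFI. For the 18 genes it was 0.67 in HRFI and 0.27 in LRFI, with a median interaction of -0.50. Of them 14 were negative, against 52.5% of all genes, and 6 were so at an unadjusted p below 0.05, against 4.14%. HMGCS1, which makes the precursor of mevalonate, read 10.47, 10.95, 10.48 and 9.56 in HRFI at day 35 and 11.58, 12.02, 11.24 and 11.40 at day 42. For LRFI the values were 10.98, 10.38, 10.73 and 11.23 at day 35 and 11.42, 11.16, 10.17 and 10.19 at day 42. The HRFI ages were apart and the LRFI ages overlapped, with LRFI day 42 replicates 3 and 4 as low as any array of day 35 but HRFI replicate 4. The interaction was -1.29 ± 0.44 (adjusted p = 0.714, limma).

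FDPS, which makes farnesyl diphosphate, had an interaction of -1.28 ± 0.40, and SQLE, the squalene epoxidase, one of -1.20 ± 0.41. NSDHL, a later enzyme of the sterol ring, was higher at day 42 without overlap in both lines, by 1.18 ± 0.17 in HRFI and 0.49 ± 0.17 in LRFI, and its interaction was -0.69 ± 0.24. HRFI day 35 replicate 4 had the lowest list mean, 8.54. Without it the list median was -0.35 and the SQLE interaction -0.77, the range of the median over all alternatives being -0.68 to -0.35. In fatty acid synthesis 11 of 16 genes were negative, against 52.5% of all genes, with a median of -0.09. At an unadjusted p below 0.05, 2 were negative and 2 positive, against 4.14% and 2.87% of all genes. There the elongase ELOVL6 had -0.84 ± 0.28, and GPAM, which starts glycerolipid synthesis, 0.69 ± 0.21. GPAM was dim, at a mean level of 4.01. ME1, the malic enzyme that supplies NADPH, was higher at day 42 by 0.76 in LRFI and 0.22 in HRFI, and its interaction of 0.54 ± 0.22 was 0.11 without the arrays of high actin difference.

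PGD, an enzyme of the pentose phosphate pathway that also makes NADPH, read 11.82, 11.41, 11.18 and 11.47 in HRFI at day 35 and 11.98, 12.20, 11.97 and 12.05 at day 42. The LRFI values were 11.91, 12.08, 12.14 and 11.99 at day 35 and 11.80, 11.91, 11.86 and 11.62 at day 42. Lines and ages were separated in all 4 comparisons, the LRFI ages only beyond the second decimal, at 11.91. The interaction was -0.81 ± 0.16 (adjusted p = 0.539, limma). IDH3B, a subunit of the mitochondrial isocitrate dehydrogenase, stood at 10.17 to 10.57 in HRFI at day 35 and 10.74 to 11.16 in LRFI at day 35, and at 10.79 to 11.02 and 10.72 to 10.77 at day 42. Its interaction was -0.71 ± 0.15 (adjusted p = 0.539), while its dimmer second probe set gave -0.02 ± 0.16.

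Small values of 1 sign were seen in the respiratory chain and the proteasome. Over all genes, 52.5% were below 0 and 47.5% above 0, and 4.14% were negative at an unadjusted p below 0.05. Of 50 respiratory chain and ATP synthase genes, 45 were negative and 6 at an unadjusted p below 0.05, with a median of -0.12, among them the complex I subunit NDUFA12 at -0.42 ± 0.14, cytochrome c, CYCS, at -0.35 ± 0.13 and the ATP synthase subunit ATP5C1 at -0.28 ± 0.12. Of 31 proteasome genes, 28 were negative and 5 at an unadjusted p below 0.05, with a median of -0.22. The core subunits PSMA2 and PSMA6 had -0.45 ± 0.14 and -0.36 ± 0.15, the ATPase PSMC1 -0.40 ± 0.16 and the assembly factor POMP -0.41 ± 0.17. Without the arrays of high actin difference PSMC1 was -0.21 and CYCS -0.21. Over all alternatives the median stayed between -0.16 and -0.10 for the respiratory chain and between -0.30 and -0.15 for the proteasome. By contrast 46 of 59 ribosomal protein genes were positive, with a median of 0.05 and 0 genes in either direction at an unadjusted p below 0.05.

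The remaining negative genes of smallest p had other roles. ATP1B3, a beta subunit of the sodium pump, read 8.40 to 9.14 in LRFI at day 35 and 8.07 to 8.11 at day 42, against 7.92 to 8.27 and 8.18 to 8.73 in HRFI, and its interaction was -0.98 ± 0.20. Its second probe set gave -0.44 ± 0.19. MST1, a growth factor related to HGF, had an interaction of -1.26 ± 0.27, with day 42 levels of 6.88 to 7.66 in HRFI and 6.29 to 6.78 in LRFI. NDFIP2, an adaptor of NEDD4-type ubiquitin ligases, had -0.55 ± 0.13, and -0.45 ± 0.21 on its other, brighter probe set. The adjusted p of each of these was 0.539 (limma).

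The 12 positive genes of smallest p had mean levels of 3.57 to 9.43, and CPO had both the highest level and the largest value. In mammals it encodes a brush border carboxypeptidase that trims dietary peptides. It read 10.58, 9.78, 10.24 and 11.08 in HRFI at day 35 and 8.47, 8.20, 9.08 and 9.20 at day 42. LRFI arrays gave 9.70, 7.74, 9.56 and 6.78 at day 35 and 10.33, 8.94, 10.97 and 10.34 at day 42. The HRFI ages were apart, while in LRFI they overlapped because of day 42 replicate 2. The interaction was 3.38 ± 0.79 (adjusted p = 0.539, limma), and stayed between 2.83 and 3.84 over the alternatives.

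HEBP2, a heme-binding protein, had the smallest p among positive named genes. Its HRFI levels were 4.29, 4.45, 4.59 and 4.40 at day 35 and 4.11, 4.27, 3.77 and 4.29 at day 42, and its LRFI levels 3.98, 4.05, 4.04 and 3.99 at day 35 and 4.44, 4.39, 4.42 and 4.54 at day 42. The lines did not overlap at either age, nor did the ages in LRFI, and the HRFI ages were separated only beyond the second decimal, at 4.29. The interaction was 0.76 ± 0.15 (adjusted p = 0.539), and that of its other probe set 0.20 ± 0.15. DELE, on its only probe set, had 0.89 ± 0.19, with LRFI levels of 6.69 to 7.22 at day 35 and 7.25 to 7.79 at day 42.

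For 3 of the others the brightest probe set of the same gene had the other sign. PSMD7, a subunit of the proteasome lid, had 1.21 ± 0.28 on a probe set at a mean level of 4.44 but -0.28 ± 0.15 on one at 10.86. RNF7, a RING subunit of cullin ubiquitin ligases, had 1.26 ± 0.29 at a mean level of 6.00 but -0.26 ± 0.28 at 9.97. The splicing regulator HNRNPLL had 0.51 ± 0.11 at 5.81 but -0.10 ± 0.15 at 8.91. BMP7, a secreted growth factor, had 0.88 ± 0.21 and 0.48 ± 0.21 on 2 probe sets and -0.10 ± 0.17 on the other, all of them dim, at mean levels of 2.72 to 3.96. By contrast the nuclear import receptor TNPO1 had 0.56 ± 0.12 at a mean level of 4.89 and 0.62 ± 0.22 on its brightest probe set, at 7.06. Of its 5 further probe sets, 3 had the same sign and 2 the other, at -0.29 ± 0.14 and -0.005 ± 0.28. PRPSAP1, which regulates the synthesis of the nucleotide precursor PRPP, had 0.56 ± 0.13 at 5.03 and 0.66 ± 0.24 on its brightest, at 8.93. The glycosyltransferase GCNT2 had 0.92 ± 0.20 at a mean level of 3.57. Its other probe sets, also dim at 3.67 and 3.98, gave 0.34 ± 0.27 and 0.24 ± 0.28. The chromatin remodelling subunit ACTR5 had 0.88 ± 0.20 at 5.16 but 0.18 ± 0.13 on its brighter probe set, at 6.15.

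Carriers of vitamins and other nutrients gave large values of both signs. RBP4, the plasma carrier of retinol, read 6.38, 6.39, 7.52 and 5.17 in HRFI at day 35 and 6.59, 5.89, 7.45 and 6.90 at day 42. On LRFI arrays the values were 8.50, 8.27, 7.74 and 8.89 at day 35 and 6.23, 6.60, 6.21 and 6.46 at day 42. The LRFI day 35 arrays were above all others, and the other 3 groups overlapped. Its interaction was -2.32 ± 0.56 (adjusted p = 0.539, limma), and it ran opposite to the liver plasma protein list, on which GC and TTR, also carriers in plasma, were positive.

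CUBN, in mammals the receptor that takes up vitamin B12 in the gut, had an interaction of 2.59 ± 0.91 that rested on LRFI at day 35. There it read 9.44, 8.61, 6.49 and 5.05, the 2 low values being those of the replicates with a high actin difference, while all other arrays lay between 8.59 and 10.15. Without the arrays of high actin difference it was 1.16, and 3 dimmer probe sets of CUBN gave 0.01 to 0.15. The thiamine transporter SLC19A3 read 6.24 to 7.30 in LRFI at day 35 and 7.35 to 8.15 at day 42, without overlap, and 6.02 to 7.16 in HRFI over both ages, which gave 1.09 ± 0.39. BCO1, which cleaves beta-carotene to retinal, had 0.46 ± 0.20. Of 31 mineral and vitamin genes 19 were positive, against 47.5% of all genes, with a median of 0.16. That median was 0.02 without the arrays of high actin difference and 0.04 without LRFI day 35 replicate 3 alone. At an unadjusted p below 0.05, 3 were positive and 1 negative, against 2.87% and 4.14% of all genes.

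CYP2AC1, a cytochrome P450, gave the largest value among 34 genes of xenobiotic metabolism. It read 8.91, 7.88, 7.41 and 6.88 in LRFI at day 35 and 9.80, 9.70, 9.72 and 9.85 at day 42. In HRFI it read 9.21, 9.26, 8.51 and 9.09 at day 35 and 8.86, 9.57, 8.10 and 9.24 at day 42. The LRFI ages were apart and the HRFI ages overlapped. The interaction was 2.07 ± 0.50 (adjusted p = 0.539, limma), and 2.70 ± 0.998 on the second probe set. CYP3A5 and the efflux pump ABCB1LA had 0.35 ± 0.13 and 0.44 ± 0.18, and the glutathione transferase MGST1 -0.36 ± 0.12. ABCB1LA was dim, at a mean level of 3.85, and its interaction was 0.26 without the arrays of high actin difference. Of the 34 genes 20 were positive, against 47.5% of all genes. The list had a median of 0.07, which turned to -0.05 without the same arrays. At an unadjusted p below 0.05, 4 genes were positive and 1 negative, against 2.87% and 4.14% of all genes.

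Among 26 sugar, peptide and amino acid transporters, 14 were positive, against 47.5% of all genes. At an unadjusted p below 0.05, 1 was positive and 3 were negative, against 2.87% and 4.14% of all genes, and 1 of each sign is named here. The median of these transporters, 0.08, turned to -0.09 without the arrays of high actin difference. SLC15A1, the peptide transporter of the brush border, had -0.40 ± 0.16, on levels of 13.24 to 13.80 over all arrays, and the aromatic amino acid transporter SLC16A10 0.37 ± 0.16. The fatty acid transport protein SLC27A4 was higher at day 42 by 0.68 ± 0.14 in LRFI, without overlap, and by 0.21 ± 0.14 in HRFI, an interaction of 0.47 ± 0.20. It was the 1 gene of 23 in lipid absorption at an unadjusted p below 0.05, and the median of that list was 0.00. At that threshold 2.87% of all genes were positive and 4.14% negative, so the count was near that of the whole array. In fatty acid oxidation, with 21 genes and a median of -0.03, ETFA had 0.36 ± 0.13, ACAT1 -0.56 ± 0.23 and CPT2 -0.36 ± 0.15.

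AGR2, an isomerase that goblet cells use to fold mucin, read 13.55, 13.73, 13.96 and 13.88 in LRFI at day 35 and 13.15, 13.45, 12.90 and 13.27 at day 42. In HRFI its levels were 13.36 to 13.65 over both ages. The interaction was -0.57 ± 0.16 (adjusted p = 0.676, limma). MUC2, the main gel-forming mucin, had -0.38 ± 0.17 on its brightest probe set, at a mean level of 5.05. Its other probe sets gave -0.31 ± 0.22 and 0.01 ± 0.20. NTS, the hormone neurotensin, had -0.81 ± 0.30. Of the 22 goblet and enteroendocrine genes 12 were positive, against 47.5% of all genes, with a median of 0.06. At an unadjusted p below 0.05, 3 were negative (AGR2, MUC2 and NTS) and 0 positive, against 4.14% and 2.87% of all genes. For NTS the value was -0.49 without the 2 pancreas-high arrays and -0.54 without those of high actin difference.

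T and NK cell markers had a positive median, 0.22, with 14 of 19 positive, against 47.5% of all genes. CD5 and CD226, receptors of T and NK cells, had 0.72 ± 0.23 and 1.02 ± 0.45. They were the 2 at an unadjusted p below 0.05, where 2.87% of all genes were positive. CD226 was 0.68 without HRFI day 42 replicate 3. The median age difference of the list was -0.18 in HRFI and -0.05 in LRFI. Over the alternatives its median interaction stayed between 0.13, without HRFI day 35 replicate 4, and 0.34. Of the 14 B and plasma cell markers 10 were negative, with a median of -0.08, and 9 of 12 antigen presentation genes, with a median of -0.05. Over all genes, 52.5% were below 0. For the 23 interferon response genes the median was -0.14, but 0.59 without the arrays of high actin difference and -0.39 without HRFI day 35 replicate 4, whose list mean of 9.44 was the highest of all arrays.

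Plasma protein genes of the liver were a list added after the arrays were inspected. It had 18 of 20 positive, a median of 0.83 and 7 genes at an unadjusted p below 0.05. Over all genes, 47.5% were above 0 and 2.87% were positive at that threshold. GC, the vitamin D-binding protein, read 7.88, 7.39, 7.43 and 7.62 in HRFI at day 35 and 6.87, 7.48, 6.99 and 6.98 at day 42. Values in LRFI were 7.32, 7.46, 6.67 and 6.87 at day 35 and 7.62, 8.19, 7.57 and 7.79 at day 42. Its interaction was 1.21 ± 0.27 (adjusted p = 0.539, limma), and 0.98 without the 2 liver-high arrays. FGB, a fibrinogen chain, had 2.71 ± 0.65 and 1.81 without those arrays, TTR, a thyroid hormone carrier, 2.22 ± 0.75 and 1.30, and APOH 2.69 ± 1.08 and 1.04. The list median was 0.25 without the 2 liver-high arrays and 0.19 without the pancreas-high arrays as well. The 16 pancreatic enzymes had a median of 3.35 with 0 genes at an unadjusted p below 0.05, and a median of -0.07 without the 2 pancreas-high arrays.

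**Figure D5:**
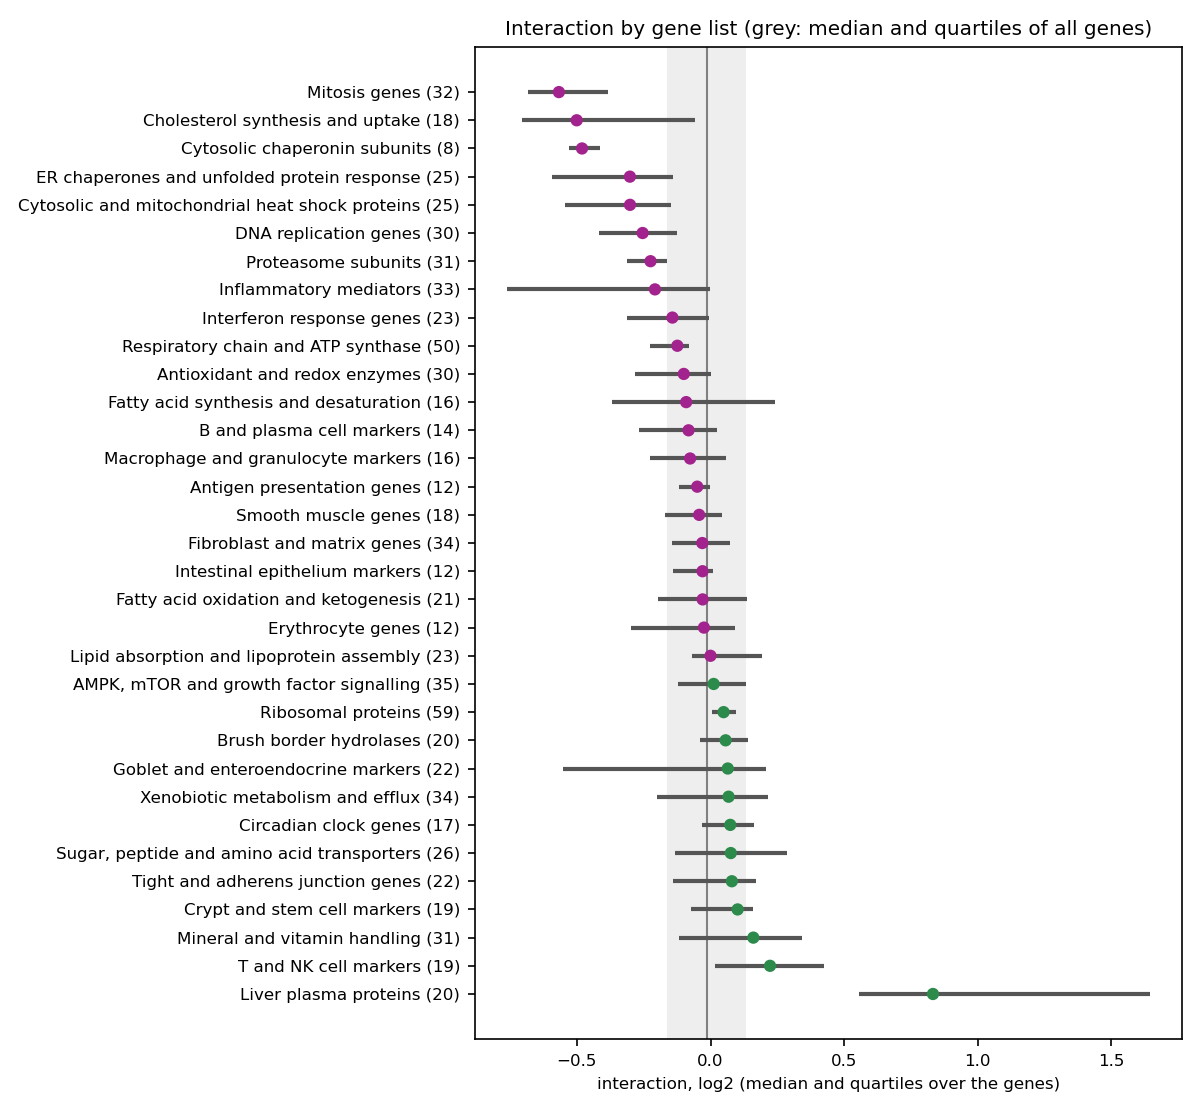
Median interaction (point) and quartiles (bar) over the genes of each list, log2 on the x axis, with the number of genes in brackets; the grey band holds the median and quartiles of all 13013 genes, and the pancreatic enzymes, at 3.35, are left out. The medians of 8 lists, from mitosis at -0.57 to inflammatory mediators at -0.21, lie to the left of the band, and those of mineral and vitamin genes (0.16), T and NK markers (0.22) and liver plasma proteins (0.83) to the right.

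The other lists had medians between -0.10 and 0.10, and most of these did not keep their sign over the alternatives. These were antioxidant and redox enzymes at -0.10 (30 genes), smooth muscle at -0.04 (18), fibroblast and matrix genes at -0.03 (34), erythrocyte genes at -0.02 (12), intestinal epithelium at -0.03 (12), signalling by AMPK, mTOR and growth factors at 0.01 (35), brush border hydrolases at 0.06 (20), circadian clock at 0.07 (17), tight and adherens junctions at 0.08 (22) and crypt and stem cells at 0.10 (19). The brush border median turned to -0.21 without the arrays of high actin difference. Among their members, creatine kinase CKB had -0.56 ± 0.18, the AMPK subunit PRKAB1 0.49 ± 0.16, and the junction proteins CGN and JAM3 0.55 ± 0.17 and 0.36 ± 0.14. A second CGN probe set of like level, 7.02 against 7.09, gave 0.15 ± 0.14, and JAM3 was dim, at a mean level of 3.37.

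Agreement between probe sets was used as a second way to choose genes: 17 genes had 2 probe sets of the same sign, each at an unadjusted p below 0.01. Of these, 14 were negative (ACTR6, ANGPT1L, CASP1, DUS2, FKBP7, GOLM1, LDAH, NAPEPLD, RB1, UBQLN1, UMPS, VDHAP, ZNF644 and ZPLD1) and 3 positive (ASB1, FAM172A and KSR1). No share over all genes with several probe sets is given for this rule, so the counts only describe the choice. At an unadjusted p below 0.05, 3.18% of all probe sets were positive and 3.17% negative. Probe sets of 1 gene were hybridised with the same RNA and can overlap in sequence, so they are not replicates. NAPEPLD, in mammals an enzyme that makes N-acylethanolamines, read 11.45, 12.41, 12.16 and 11.93 in LRFI at day 35 and 11.26, 11.35, 11.66 and 11.19 at day 42 on the first. In HRFI it read 10.94, 11.35, 11.02 and 11.08 at day 35 and 11.23, 11.90, 11.37 and 11.87 at day 42. Its interactions were -1.12 ± 0.27 and -1.26 ± 0.31 (adjusted p = 0.539 for both, limma).

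ANGPT1L gave -0.78 ± 0.20 and -0.99 ± 0.23, on LRFI levels that were higher at day 35 than at day 42 without overlap on both probe sets. GOLM1, a Golgi membrane protein, gave -0.86 ± 0.22 and -0.67 ± 0.16. The inflammatory caspase CASP1 gave -0.56 ± 0.15 and -0.64 ± 0.20, with HRFI levels higher at day 42 without overlap on both, and -0.38 and -0.36 without the arrays of high actin difference. For the pyrimidine synthesis enzyme UMPS they were -2.68 ± 0.84 and -0.47 ± 0.15. UBQLN1, which brings ubiquitinated proteins to the proteasome, gave -0.62 ± 0.20 and -0.56 ± 0.17, the lipid droplet protein LDAH -0.62 ± 0.21 and -0.59 ± 0.20, and the cell cycle regulator RB1 -0.55 ± 0.18 and -0.65 ± 0.21. The first UBQLN1 value was -0.41 without the pancreas-high and liver-high arrays, and the LDAH values were -0.93 and -0.90 without those of high actin difference. KSR1, a scaffold of the RAF and MEK kinases, gave 0.53 ± 0.17 and 0.56 ± 0.17. Its other probe sets, dimmer at mean levels of 2.54 to 4.65, gave -0.15 to 0.29, none at an unadjusted p below 0.05.

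Leaving out 1 array at a time gave calls in 5 of 16 cases, and the probe sets concerned were chosen after their values were seen. Without LRFI day 35 replicate 1, 8 probe sets passed (limma): AVD at -5.42 ± 0.61 and EXFABP at -2.62 ± 0.29, both with an adjusted p of 0.00449, SAA at -3.50 ± 0.50 (0.0334), GATD3AL2 at -3.35 ± 0.51 and SIPA1L2 at -1.53 ± 0.23 (both 0.0467), the uncharacterised locus LOC422654 at -2.13 ± 0.31 (0.0334), and 2 probe sets without a symbol. In each of the 6 named genes the array left out was the lowest of its group, as for SIPA1L2, at 3.86 against 5.12 to 5.40. Without LRFI day 35 replicate 4, SERPINB10B, a serine protease inhibitor, passed at -1.56 ± 0.19 (adjusted p = 0.0196, limma). It read 5.98, 5.39, 6.01 and 4.37 in LRFI at day 35 and 3.74 to 4.22 on all other arrays.

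MHCY4, a gene of the chicken MHC-Y region, passed without HRFI day 35 replicate 4, at -6.65 ± 0.45 (adjusted p = 8.56e-06, limma). Its 4 HRFI day 35 arrays read 6.41, 5.29, 4.89 and 11.96, and the other 12 arrays lay between 11.55 and 12.83. With all arrays its interaction was -5.04 ± 1.46 (adjusted p = 0.676). Whether the low readings reflect the level of the RNA or how well the probe set matches it in those samples cannot be told apart here. The unnamed probe set of smallest adjusted p passed without HRFI day 35 replicate 2, at 1.09 ± 0.14 (0.039), and without HRFI day 42 replicate 2, at 1.09 ± 0.14 (0.036). In the remaining 11 cases no probe set passed.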

How the data were processed

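Per the labels, total RNA of duodenum was extracted with Trizol, and biotinylated cRNA was hybridised to Affymetrix chicken arrays. The deposited log2 values carry no scale note of their own. Per the submitters' processing notes they were made with Partek 6.5 and RMA, which corrects the background, normalises by quantiles and summarises the probes of a set. They were used as deposited: array medians were 5.05 to 5.11, which normalisation fixes, and precision depends on how many arrays a group has. After 96 controls were left out, 38439 probe sets were fitted with limma 3.58.1 in R 4.3.3, with 1 mean per group, moderated variances and Benjamini-Hochberg adjustment over all probe sets; the level for passing was 0.05. Symbols came from GEO's platform annotation, and probe sets without one are called unnamed: 27184 probe sets had 1 symbol, 161 several and 11094 none, and 26853 matched a RefSeq gene, with 0 symbols updated. A gene was represented by its probe set of highest mean level.

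The named genes were the 12 of smallest p in each direction, passing over 10 probe sets without a usable symbol, genes with 2 probe sets of the same sign at p below 0.01, and up to 4 genes per list at p below 0.05. Lists were described by counts and medians. The genes and lists were chosen with earlier results of these data known, and the liver and epithelium lists, and the settings that leave out arrays by their pancreas, liver or actin values, were added after the data were seen. The fit was tested on simulated data with known changes. Whether the 4 arrays of a group stand for different birds is not in the labels, which also give no sex or batch, so p-values measure the spread between these samples, which may be technical. Alternatives were the replicate number as a block, other variance settings, a filter on level, each array left out, and arrays centred on their median. Same-numbered arrays of different groups did not deviate together more than other arrays did. Their 24 correlations ran from -0.311 to 0.33, with a median of -0.048. For 72 pairs of different number they ran from -0.389 to 0.378, with a median of 0.0245.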

Additional observations from a re-analysis of the deposited data

Results flagged for a closer look

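Of 600 groups of 4 arrays checked, 21 had 1 array far from the other 3 by Dixon's criterion, where chance gives about 1 in 20. The count is no more than chance gives. It does not say which single cases are chance, because the groups share arrays and genes can vary together. The cases are listed only as values to check. In LRFI at day 35 these were ACTR5 on replicate 4 at 5.30 (others 4.65 to 4.73), TTR on replicate 3 at 6.42 (7.81 to 8.02), RNF7 on replicate 1 at 6.31 (5.46 to 5.54) and PRPSAP1 on replicate 2 at 4.76 (all others 4.88). In LRFI at day 42 they were the second ACTR5 probe set on replicate 1 at 5.88 (6.21 to 6.28), C3 on replicate 2 at 7.53 (6.04 to 6.17), and EXFABP and ME1 on replicate 3 at 7.16 (6.70 to 6.77) and 11.46 (others at most 11.05).

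In HRFI at day 35, SQLE on replicate 4 read 7.75 (9.32 to 9.49), NUF2 on replicate 2 read 6.54 (7.16 to 7.29), BCO1 on replicate 1 read 12.73 (12.18 to 12.23) and the second CASP1 probe set on replicate 3 read 10.67 (11.30 to 11.35). In HRFI at day 42, LYG2 on replicate 1 read 9.08 (10.83 to 11.02), KIF11 and TNPO1 on replicate 3 read 7.74 (7.58 to 7.59) and 4.57 (4.71 to 4.73), CCNE2 on replicate 4 read 5.25 (4.88 to 4.94) and the unnamed probe set of smallest adjusted p on replicate 2 read 9.34 (9.06 to 9.10). Of the list means, pancreatic enzymes stood apart on HRFI day 35 replicate 3 at 12.53 and LRFI day 42 replicate 2 at 10.26, smooth muscle on HRFI day 42 replicate 4 at 9.56 (9.36 to 9.40) and brush border hydrolases on HRFI day 42 replicate 1 at 10.1 (10.03 to 10.04).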

How the results depend on the processing

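The number of probe sets that passed was 0 under each alternative except when single arrays were left out, where it ran from 0 to 8. With the replicate number as a block the count was also 0 and the number at an unadjusted p below 0.05 was 2438. That number was 1209 when only probe sets above the median level were tested, of which there are fewer, and 1939 to 3024 under the others. Replicate numbers were shared between groups. Correlations over 0.1 were found for 6 of 24 same-number pairs and 21 of 72 pairs of different number. The numbers were treated as sample names, though such correlations cannot exclude a shared batch. Of 3104 gene values under up to 26 alternatives, 3097 kept their direction and side of the threshold, 7 came to pass and 0 were reversed. The genes were chosen largely by small p on these same arrays and none passed in the main fit, so this outcome was favoured in advance. Of 918 list medians under 27 alternatives, 895 moved by less than the spread between replicates and 23 by more. The sign held under every alternative run for 16 lists and turned under at least 1 for 18. Without the arrays of high actin difference the medians of mitosis (-0.57 to -0.13), DNA replication (-0.25 to -0.08) and mineral and vitamin genes (0.16 to 0.02) came nearer to 0, and those of interferon response (-0.14 to 0.59), macrophage markers (-0.08 to 0.08), brush border (0.06 to -0.21), transporters (0.08 to -0.09) and xenobiotic metabolism (0.07 to -0.05) turned, among others. Other medians that depended on few arrays were pancreatic enzymes (3.35, and -0.07 without 2 arrays) and liver plasma proteins (0.83, and 0.19 without the pancreas-high and liver-high arrays). With the actin difference as a covariate, the mitosis and DNA replication medians were -0.57 and -0.27. The cause was not tested. With 4 arrays a group and a median SE of 0.17, an interaction had to be several times larger than that to pass over 38439 probe sets.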
